A study of Mus musculus with 12 samples.

Results

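Sorting nexins are endosomal proteins that hold a phox (PX) domain, which binds phosphoinositides of the endosome membrane. Transcripts of Snx4 and of 9 related sorting nexins were followed here in lumbar spinal cord, where the motor neurons of the hind limbs lie. The 10 genes were matched by symbol to the Ensembl gene in each count file, and all 10 of the 49548 genes counted were found. Snx4 was taken because its level was higher in every MFN2 library than in every WT library, so it was selected on the CPM values of this contrast, and its difference between the genotypes is given as a description with no test. The other 9 were taken for their known link to Snx4 or to the same endosomes. They are its binding partners Snx7 and Snx30, the coat nexins Snx1, Snx2, Snx5 and Snx6, the small nexins Snx3 and Snx12, and Snx27.

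Total RNA was extracted from 8 MFN2 and 4 WT mice at 30 days of age, 1 library per mouse, with no treatment in any of them. The sources name the assay in conflicting ways, as total RNA, poly(A) mRNA and 3′-mRNA sequencing, so which RNA entered the libraries is uncertain. MFN2 mice are the MitoCharc1 model of Charcot-Marie-Tooth disease type 2A, line L51Ugfm on the background the labels write as B6;D2. They carry a hemizygous transgene for human MFN2 with the R94Q change, driven by the rat Eno2 promoter, which is active in neurons, and they keep their own mouse Mfn2. WT mice are labelled C57BL/6 while the study's methods call them littermates, so a difference of strain background and a difference of genotype cannot be told apart. Mouse Mfn2, the outer mitochondrial membrane GTPase, differed by -0.05 on the log2 scale (SE 0.065, FDR 0.733), and the human transgene was not analysed here. Libraries held between 19359454 and 26738930 counts each and are named by their numbers. WT libraries are 44 to 47, and MFN2 libraries are 41 to 43 and 72 to 76. All 4 WT libraries lie in the first run of numbers, so for libraries 72 to 76 the run and the genotype cannot be told apart.

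Endosomes sort membrane proteins for return to the cell surface, for passage to the Golgi or for lysosomal breakdown, and sorting nexins shape and select the tubules that carry the rescued proteins. Snx4 pairs with Snx7 or Snx30 through a curved BAR domain and serves the route from early endosomes to the recycling compartment, with the transferrin receptor and the autophagy protein Atg9a among its known cargo. Neurons depend on this traffic over long axons and at synapses.

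The start regions of Snx4 and its partners are shown because the question was whether these 3 genes move together. Each line runs from 250 bases before to 50 bases after the RefSeq transcription start on GRCm38.p6, 5′ to 3′ on the gene's own strand. Capitals mark GGGCGG (the GC box), CCAAT and CACGTG, searched on both strands, so a reverse match reads CCGCCC or ATTGG, and CACGTG is its own reverse. The window of Snx4 is chr16:33251206-33251505 on the plus strand, that of Snx7 is chr3:117868887-117869186 on the minus strand, and that of Snx30 is chr4:59805400-59805699 on the plus strand, upstream of the gene start in GENCODE.
Snx4: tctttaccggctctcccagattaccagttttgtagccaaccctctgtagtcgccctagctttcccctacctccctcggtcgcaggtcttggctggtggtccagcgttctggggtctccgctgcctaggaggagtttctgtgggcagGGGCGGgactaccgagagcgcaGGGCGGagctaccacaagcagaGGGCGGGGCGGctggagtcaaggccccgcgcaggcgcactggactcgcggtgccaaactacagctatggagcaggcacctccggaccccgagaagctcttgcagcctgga
Snx7: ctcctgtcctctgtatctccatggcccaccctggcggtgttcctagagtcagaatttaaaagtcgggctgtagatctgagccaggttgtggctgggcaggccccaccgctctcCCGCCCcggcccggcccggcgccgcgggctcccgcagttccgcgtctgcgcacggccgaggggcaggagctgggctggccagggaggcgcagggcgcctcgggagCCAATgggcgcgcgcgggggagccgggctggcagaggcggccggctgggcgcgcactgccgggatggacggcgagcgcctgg
Snx30: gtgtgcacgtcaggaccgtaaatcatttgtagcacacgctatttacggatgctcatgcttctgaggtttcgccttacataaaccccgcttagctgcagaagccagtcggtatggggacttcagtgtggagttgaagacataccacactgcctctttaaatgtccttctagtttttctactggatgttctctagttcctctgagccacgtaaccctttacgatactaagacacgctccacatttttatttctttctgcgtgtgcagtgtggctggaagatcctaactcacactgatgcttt

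Snx4 carried 4 matches to the GC box, of which 2 overlap, and 19 CpG. Snx7 carried 1 GC box, 1 CCAAT and 32 CpG. The Snx30 window held none of the 3 motifs and 11 CpG. Among 32851 promoters of this length, 35.7% held GGGCGG, 37.4% held CCAAT and 7.15% held CACGTG, and the median promoter had 7 CpG. A window was found for 8 of the 10 members, the exceptions being Snx2 and Snx27. In the other windows, Snx12 held 3 CCAAT and 1 GC box, Snx1 held 1 CCAAT and 3 GC boxes, Snx6 held 4 GC boxes, Snx5 held 1 CACGTG and Snx3 held none of the 3 motifs. These matches are descriptions of letters in the window. For 2 minus-strand genes the window lies wholly inside the gene, downstream of its start in GENCODE. The Snx1 window is chr9:66124837-66125136, with the GENCODE start at 66126587. That of Snx5 is chr2:144270523-144270822, with the GENCODE start at 144270906.

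Library 43, an MFN2 library, stood apart, and values without it are given where they differ by over 1.5 times or bear on a statement. Its mean log2 CPM (counts scaled to library size by TMM) over the forebrain markers was 8.05, against 1.54 to 2.75 in the other 11 libraries. All 7 forebrain markers tested were highest there, with a summed level of 4685 CPM led by Camk2a, a kinase abundant in cortex, against 140.3 to 207.4 CPM in the other MFN2 libraries and 108.5 to 142.3 CPM in WT. The summed caudal Hox genes, which mark the lumbar cord, were at 42.7 CPM in library 43, against 258.6 to 301.04 CPM in the other MFN2 libraries and 235.8 to 284.9 CPM in WT. Motor neuron markers summed to 35.5 CPM there, against at least 153.6 CPM in each of the others. Library 43 was the lowest of all 12 for 7 of the 10 nexins, namely Snx30, Snx1, Snx2, Snx5, Snx6, Snx3 and Snx27, while 28.7% of all tested genes were lowest there. Prx, a gene of myelinating Schwann cells, was at 35.5 CPM in library 43 and 50.4 CPM in MFN2 library 73, and no higher than 1.22 CPM in the other 10. The 4 Schwann markers did not rise as a set in library 43. Led by Mal, they summed to 777.7 CPM there, against 928.7 to 1907 CPM in the other MFN2 libraries and 1050 to 1274 CPM in WT. The part of these differences in the nexin values was not tested beyond the fits without these libraries and, for library 43, with the forebrain score as a covariate.

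Per length, Snx3 was the most abundant of the 10 and Snx7 by far the least. As RPKM (CPM per kilobase of annotated exons, mean over 12 libraries), Snx3 reached 68.2 ± 4.71 (SD) and stood above Snx2 in 12 of 12 libraries. Snx2 (25.8 ± 2.75 RPKM), Snx5 (23.3 ± 2.34 RPKM) and Snx27 (20.9 ± 1.96 RPKM) followed. Snx5 was above Snx27 in all 12 libraries. Snx2 was above Snx5 in 8 of 12, and this order went with the group, holding in 1 of 4 WT libraries (24.6 ± 0.749 against 25.4 ± 0.952 RPKM), in 2 of 3 MFN2 libraries of the first run and in all 5 of libraries 72 to 76 (28.4 ± 1.28 against 21.96 ± 1.07 RPKM).

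Snx6 (14.8 ± 1.23 RPKM) and Snx30 (14.3 ± 1.62 RPKM) kept their order in 10 libraries. Snx1 (11.3 ± 1.64 RPKM), Snx4 (11.1 ± 1.31 RPKM) and Snx12 (10.1 ± 1.39 RPKM) lay close together, and their order also went with the genotype. In all 4 WT libraries Snx4 (9.43 ± 0.126 RPKM) was below both Snx12 (11.2 ± 0.668 RPKM) and Snx1 (12.5 ± 1.27 RPKM). In MFN2, Snx4 (12.01 ± 0.411 RPKM) was above Snx12 (9.61 ± 1.37 RPKM) in 8 of 8 libraries and above Snx1 (10.7 ± 1.49 RPKM) in all but 1. Since Snx4 was selected on its difference between the genotypes, these turns are a description. Snx7, at 1.93 ± 0.514 RPKM, was below every other member in every library, so that of the known partners of Snx4 the Snx30 transcript was the more abundant here. The order depends on the length taken for each gene, and levels per length hold only if reads were drawn from the whole transcript. With the longest transcript in place of all exons, Snx5 passed Snx2, Snx1 came next in rank, and Snx3 and Snx7 kept the first and the last place.

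**Figure D1:**
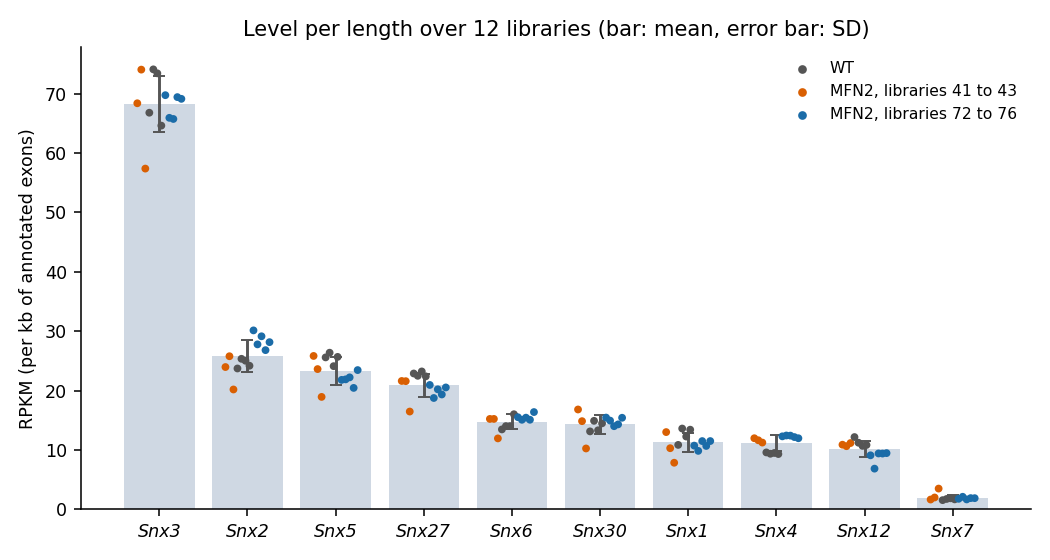
Level per length of the 10 nexins, with the gene on the x axis and RPKM on the y axis. Bars give the mean over 12 libraries, error bars the SD and points the libraries by group, and Snx3 (68.2 RPKM) and Snx7 (1.93 RPKM) mark the ends of the order.

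Snx4 (ENSMUSG00000022808, chr16:33251442-33300269, plus strand, GRCm38) was counted on 3988 exon bases that no other annotated gene overlaps, with 711 to 1253 counts per library. In the 4 WT libraries it was at 38.2, 37.3, 37.8 and 37.1 CPM. In MFN2 libraries 41 to 43 it was at 47.7, 46.4 and 44.8 CPM, and in libraries 72 to 76 at 49.0, 49.6, 49.5, 48.5 and 47.7 CPM. All 8 MFN2 libraries thus lay above all 4 WT libraries, which is how the gene was chosen, and the gap ran from 38.2 CPM in the highest WT library to 44.8 CPM in library 43.

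The means were 47.9 ± 1.64 CPM (SD, n = 8) in MFN2 and 37.6 ± 0.501 CPM (n = 4) in WT, a log2 fold change of 0.35 (SE 0.048), or 1.27-fold. By run, the value was 0.32 (SE 0.068) for libraries 41 to 43 and 0.38 (SE 0.044) for libraries 72 to 76, each against the same 4 WT libraries. Without library 43 it was 0.36. In this bulk tissue, more cells of a type and more RNA per cell cannot be told apart, for Snx4 as for the genes that follow.

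The difference between the MFN2 runs was not used to choose Snx4 and could be tested. Libraries 72 to 76 minus libraries 41 to 43 gave 0.06 for Snx4 (SE 0.055, FDR 0.565 in edgeR's quasi-likelihood fit, Benjamini-Hochberg adjusted over all genes), which did not pass. It was 0.091 without library 41 and 0.13 without TMM.

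The partner Snx7 (ENSMUSG00000028007, chr3:117781647-117868936, minus strand) did not pass the test between the genotypes, and its highest value by far was in library 43. It was at 9.47, 10.7, 11.4 and 10.3 CPM in WT, and at 10.1, 12.2 and 21.4 CPM in MFN2 libraries 41 to 43. In libraries 72 to 76 it was at 10.9, 12.9, 10.2, 11.6 and 11.5 CPM. Of the 8 MFN2 libraries, 5 were above every WT library, and the highest was library 43. These values rest on 197 to 457 counts per library, the fewest of the 10 nexins.

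Snx7 differed by 0.27 on the log2 scale (SE 0.18, FDR 0.471) between 12.6 ± 3.70 CPM (SD, n = 8) in MFN2 and 10.5 ± 0.799 CPM (n = 4) in WT, which did not pass. Without library 43 the log2 fold change was 0.12 (SE 0.089, FDR 0.456), less than its value with that library by over 1.5 times. It was 0.073 (FDR 0.682) with the forebrain score as a covariate and 0.48 (unadjusted p 0.0372, FDR 0.314) with the run of library numbers as one.

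Snx30 (ENSMUSG00000028385, chr4:59805840-59904737, plus strand), the other partner, did not pass either. Its levels were 102.3, 116.1, 103.7 and 112.9 CPM in WT and 131.04, 115.7 and 79.9 CPM in MFN2 libraries 41 to 43. In libraries 72 to 76 they were 120.4, 116.4, 109.1, 111.5 and 120.2 CPM. The genotypes overlapped, with 4 MFN2 libraries above every WT library and library 43 below every one. The log2 fold change was 0.06 (SE 0.10, FDR 0.808), and 0.12 (SE 0.058, FDR 0.272) without library 43. Leaving out other single libraries moved it to 0.018 (library 41), 0.028 (WT 44), 0.089 (WT 45) and 0.033 (WT 46). With the forebrain score and with the run as a covariate it was 0.14 (FDR 0.280) and 0.0021 (FDR 0.995). An annotated pseudogene, Gm12543, shares exon sequence with Snx30 on the same strand, so the split of reads between them is uncertain.

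**Figure D2:**
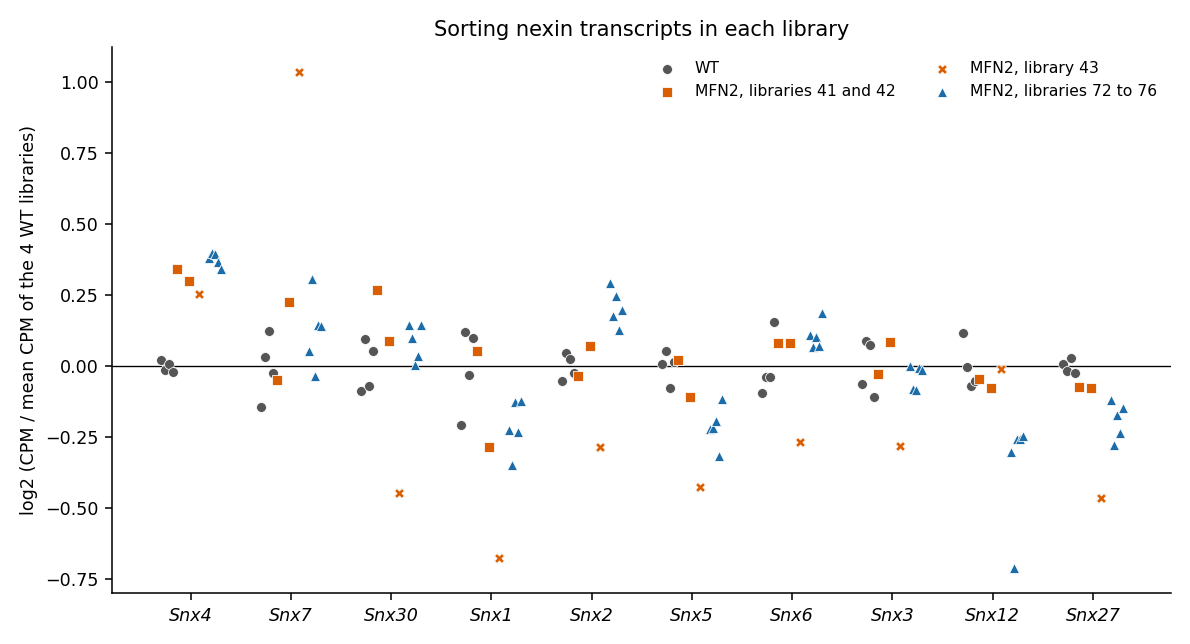
Each nexin in each library, as log2 of its CPM over the mean CPM of the 4 WT libraries (y axis), with genes on the x axis and 1 point per library. For Snx4 all 8 MFN2 points lie above the WT points and for Snx27 all 8 lie below, while library 43 is highest for Snx7 and lowest for 7 other nexins.

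Snx27 (ENSMUSG00000028136, chr3:94497544-94582716, minus strand) returns receptors with a PDZ-binding tail from endosomes to the plasma membrane together with retromer. It was the only one of the 9 other nexins whose genotypes did not overlap, and it lay lower in MFN2. WT libraries were at 157.5, 154.8, 159.9 and 154.2 CPM, and MFN2 libraries 41 to 43 at 148.8, 148.6 and 113.4 CPM. Libraries 72 to 76 were at 144.2, 129.1, 139.1, 133.2 and 141.3 CPM. All 8 MFN2 libraries were thus below all 4 WT libraries, a pattern that 1.07% of all tested genes shared, while 0.979% shared the reverse pattern of Snx4 and 2.04% showed no overlap in either direction.

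Snx27 averaged 137.2 ± 11.9 CPM (SD, n = 8) in MFN2 and 156.6 ± 2.62 CPM (n = 4) in WT. The log2 fold change of -0.19 (SE 0.071) had an unadjusted p of 0.0185 and an FDR of 0.279 in the edgeR fit over all genes, and did not pass. It was -0.16 (SE 0.049, FDR 0.129) without library 43. Against the same WT libraries, it was -0.18 (SE 0.10, FDR 0.622) in libraries 41 to 43 and -0.19 (SE 0.046, FDR 0.0115) in libraries 72 to 76.

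None of the 4 coat nexins passed over all libraries. Snx1 and Snx2 pair with Snx5 or Snx6 to form a tubular coat that carries cargo such as the mannose 6-phosphate receptor from endosomes to the Golgi. Snx5 (ENSMUSG00000027423, chr2:144250123-144270906, minus strand) was at 106.9, 110.2, 100.7 and 107.2 CPM in WT and at 107.9, 98.6 and 79.1 CPM in MFN2 libraries 41 to 43. In libraries 72 to 76 it was at 91.0, 91.4, 92.8, 85.4 and 97.9 CPM. All MFN2 libraries except library 41 were below every WT library. The log2 fold change was -0.19 (SE 0.075, unadjusted p 0.0238, FDR 0.291), and -0.16 (FDR 0.167) without library 43. An exon of Snx5 overlaps Mgme1 on the opposite strand, and with the strand setting of the counting not given in the sources used here, reads of the pair may not be separated.

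Snx2 (ENSMUSG00000034484) was at 64.1, 68.5, 67.6 and 65.3 CPM in WT and at 64.7, 69.7 and 54.5 CPM in MFN2 libraries 41 to 43. Libraries 72 to 76 were higher, at 81.4, 75.1, 78.7, 72.4 and 76.1 CPM. Over all 8 MFN2 libraries the log2 fold change was 0.11 (SE 0.093, FDR 0.566). Snx1, which pairs with the same coat nexins as Snx2, leaned the other way, at -0.23 (SE 0.11, FDR 0.343), and did not pass. It was at 54.4 ± 5.51 CPM in WT and 46.3 ± 6.48 CPM in MFN2, with 5 of 8 MFN2 libraries below every WT library. Without library 43, Snx2 was at 0.16 (unadjusted p 0.0234, FDR 0.179) and Snx1 at -0.18 (unadjusted p 0.0453, FDR 0.227). Snx6, whose genotypes overlapped, was at 0.060 (SE 0.080, FDR 0.718). It was at 0.10 without library 43, 0.030 without WT 44 and 0.12 without WT 47.

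Of the small nexins, Snx3 serves retromer in the recycling of the Wnt carrier Wls, and Snx12 is its close relative. Snx12 (ENSMUSG00000046032, chrX:101097786-101222563, minus strand) was at 35.9, 33.1, 31.5 and 32.0 CPM in WT and at 32.1, 31.4 and 32.9 CPM in MFN2 libraries 41 to 43. It was lower in libraries 72 to 76, at 26.8, 20.2, 27.8, 27.7 and 27.9 CPM, and lowest in library 73. Over all 8 MFN2 libraries, the log2 fold change of Snx12 was -0.22 (SE 0.11, FDR 0.349), and 6 of them were below every WT library. Without library 43 it was -0.26 (unadjusted p 0.0229, FDR 0.177). Snx3 was at -0.048 (SE 0.069, FDR 0.746), between 81.1 and 104.6 CPM in MFN2 and between 91.3 and 104.7 CPM in WT. It was at -0.017 without library 43, which held the lowest level, at -0.017 without WT 45, -0.022 without WT 46 and -0.082 without WT 47.

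Across the 9 nexins other than Snx4, 0 had an FDR of 0.05 or less between MFN2 and WT, as had 0% of the 15942 genes tested. At an unadjusted p under 0.05 there were 2, Snx5 and Snx27, both lower in MFN2, against 15% of all genes (7.57% lower and 7.4% higher). Without library 43 there were 5, Snx1, Snx5, Snx12 and Snx27 lower and Snx2 higher, against 21.2% of 15835 genes (10.4% lower and 10.7% higher), and none of the 9 passed the FDR. The log2 fold change was negative for 5 and positive for 4. The median over all tested genes was 0.0038. DESeq2 called 200 genes in the table and none of the 9.

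**Figure D3:**
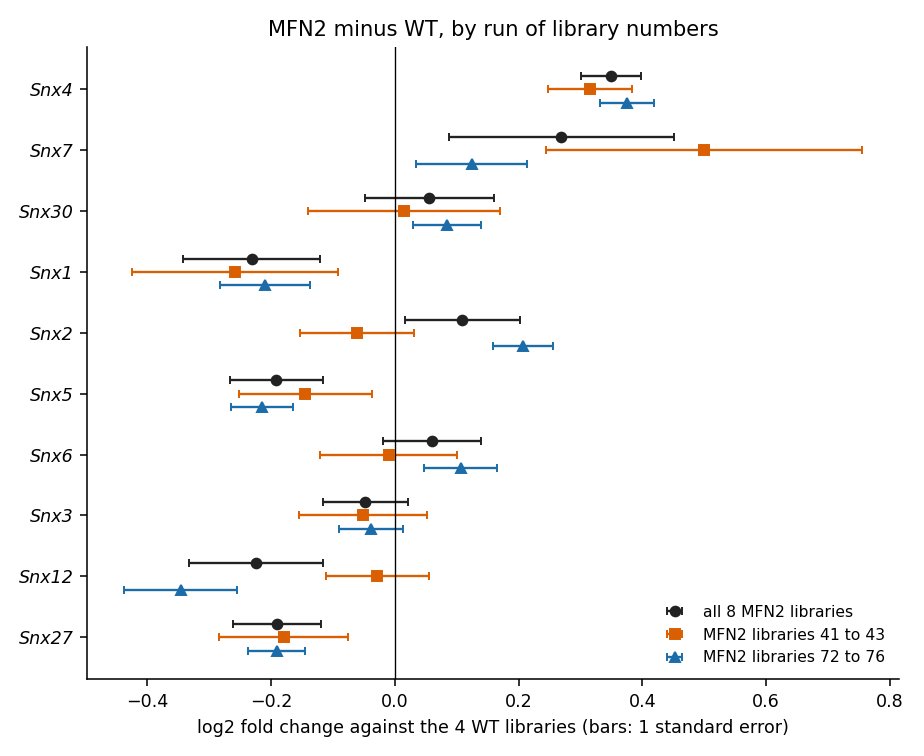
Log2 fold change (x axis) of each nexin (y axis) between MFN2 and WT, for all 8 MFN2 libraries, libraries 41 to 43 and libraries 72 to 76, each against the same 4 WT libraries. Bars are 1 standard error, and the points of the runs lie farthest apart for Snx7 (0.50 and 0.12), Snx12 (-0.03 and -0.35) and Snx2 (-0.06 and 0.21).

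Taken by run, 4 of the 9 other nexins passed between libraries 72 to 76 and WT, where 23.8% of the 15743 genes tested passed (11.1% higher and 12.7% lower). Snx2 rose by 0.21 (SE 0.049, FDR 0.00995). Snx5 fell by 0.21 (SE 0.051, FDR 0.0101), Snx12 fell by 0.35 (SE 0.091, FDR 0.0172) and Snx27 fell by 0.19 (SE 0.046, FDR 0.0115). Snx1 missed the threshold at -0.21 (FDR 0.0522). The partners did not pass, with Snx7 at 0.12 (FDR 0.340) and Snx30 at 0.08 (FDR 0.284).

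In repeats chosen after seeing the data, these 4 nexins passed when each of the 9 libraries was left out in turn, including library 73, and 1 more passed without WT library 44 (Snx1, FDR 0.00776) and without WT library 47 (Snx6, FDR 0.049). The number of genes called over the table ranged from 2350 to 4517 in these repeats. Between libraries 41 to 43 and WT, 0 of the 9 passed in edgeR and 0 had an unadjusted p under 0.05, where 0.00658% of the 15200 genes passed and 7.12% had such a p. There Snx7 was at 0.50 (SE 0.26, FDR 0.622), with library 43 among the 3, Snx2 at -0.06, Snx5 at -0.14, Snx12 at -0.03 and Snx27 at -0.18. Both comparisons share the 4 WT libraries.

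Astrocyte and microglial markers moved with the comparison of libraries 72 to 76 and WT, while 0 of 6 oligodendrocyte markers passed and their sums overlapped WT. Of the other lists, 1 forebrain marker rose (Nrgn), 1 neuron marker rose (Syt1) and 1 fell (Snap25), and 1 endothelial marker fell (Cldn5). Of the 5 libraries, 3 had endothelial sums above every WT library, 4 had such forebrain sums and 4 such Schwann sums. The forebrain sums were 140.3 to 176.3 CPM, against 108.5 to 142.3 CPM in WT. The Schwann sums were 1188 to 1907 CPM, against 1050 to 1274 CPM in WT. No motor neuron, caudal Hox or Schwann marker tested passed. The 6 astrocyte markers, of which Slc1a2 was the most abundant, summed to 4963 to 6380 CPM in libraries 72 to 76 and to 6774 to 7751 CPM in WT, with all 5 MFN2 libraries below every WT library, and 4 of 6 markers fell (Slc1a2, Aldh1l1, Gja1 and Gfap) and none rose. The microglial markers summed to 125.0 to 153.0 CPM in libraries 72 to 76 and to 157.0 to 204.3 CPM in WT, again without overlap, and P2ry12, Tmem119, Cx3cr1 and Csf1r among them fell. In MFN2 libraries 41, 42 and 43 the astrocyte sums were 8465, 5978 and 5761 CPM and the microglial sums 242.2, 149.0 and 237.9 CPM. No marker of either list was at 0 in all libraries. The part of these cells in the nexin values of libraries 72 to 76 was not tested.

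Snx2 and Snx12 were the only members whose libraries 72 to 76 did not overlap any of the 7 libraries of the first run, WT included. For Snx2 they spanned 72.4 to 81.4 CPM, against 54.5 to 69.7 CPM in the first run. For Snx12 they spanned 20.2 to 27.9 CPM, against 31.4 to 35.9 CPM. Such a gap was found in 8.28% of all tested genes, 4.34% higher and 3.94% lower in libraries 72 to 76.

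Within MFN2, the difference between the runs passed for 0 of the 10 nexins and for 2.19% of 15633 genes (1% higher and 1.18% lower), and without library 43 for 15.3% of genes. An unadjusted p under 0.05 was found for 2 of 10 nexins, against 24.6% of all genes, for Snx2, at 0.26 (SE 0.084, unadjusted p 0.0121, FDR 0.114), and for Snx12, at -0.32 (SE 0.11, unadjusted p 0.0201, FDR 0.136). For Snx27 it was -0.01 (SE 0.092, FDR 0.938). Snx7 was at -0.38 (SE 0.23, FDR 0.342), and at 0.02 once library 43 was left out.

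Whether the other nexins followed Snx4 from mouse to mouse was asked within the 8 MFN2 libraries, in log2 CPM, by two-sided exact permutation tests over all orders of the libraries. Of 9 nexins compared, 0 passed after Benjamini-Hochberg adjustment over the 9. For Snx7, Pearson's r was -0.75 (exact p 0.05, adjusted 0.15) and Spearman's rho was -0.31 (exact p 0.462, adjusted 0.935). For Snx30, r was 0.63 (exact p 0.103, adjusted 0.185) and rho was 0.19 (exact p 0.665, adjusted 0.935).

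Both partners changed sign in r once the 2 libraries farthest from the median of Snx4, 43 and 42, were left out, to 0.29 for Snx7 and -0.66 for Snx30, so these values rest on those libraries. With all 8 libraries Snx2 had the highest r, 0.86 (exact p 0.00975, adjusted 0.0877), with a rho of 0.67 (exact p 0.0831, adjusted 0.374) and an r of 0.60 without the pair. Snx12 lay on the other side, with an r of -0.74 (exact p 0.0419, adjusted 0.15), a rho of -0.86 (exact p 0.0107, adjusted 0.0964) and an r of -0.70 without the pair. For both of these nexins the runs of library numbers did not overlap in level, and with 3 and 5 libraries no r was computed within a run. Without library 43, 0 of 9 passed after adjustment, and the strongest r was that of Snx3, -0.86 (n = 7, exact p 0.0141, adjusted 0.127), against 0.39 with it. Snx27 went from 0.40 to -0.69, Snx5 from 0.26 to -0.56 and Snx6 from 0.71 to -0.15, so these values too rest on that library.

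**Figure D4:**
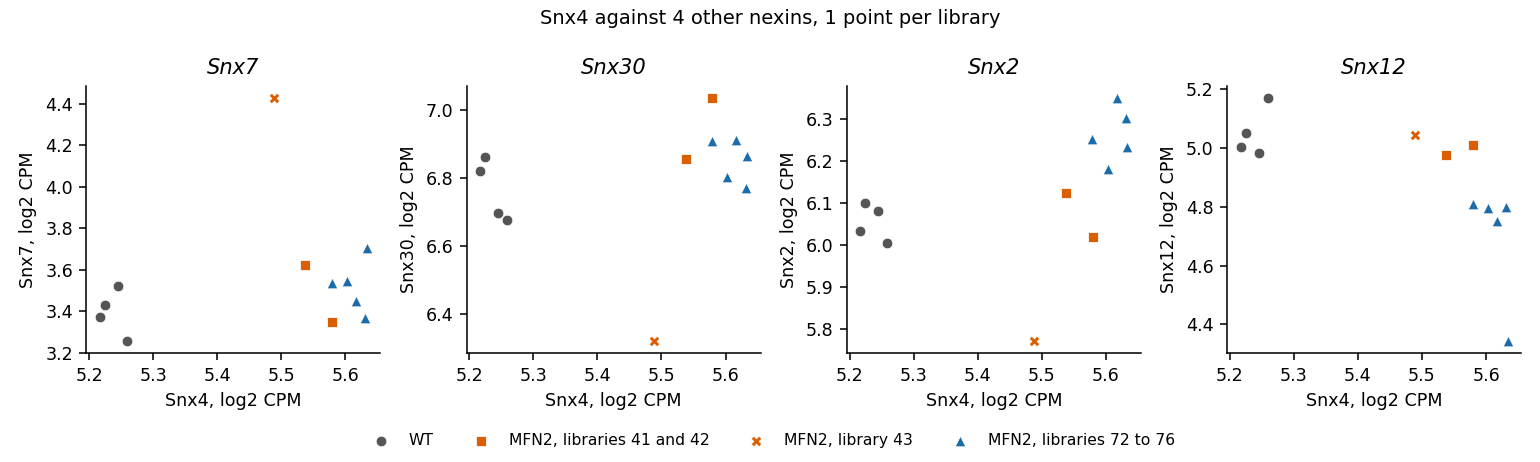
Log2 CPM of Snx4 (x axis) against log2 CPM of Snx7, Snx30, Snx2 and Snx12 (y axes), 1 point per library. Library 43 lies far from the other libraries for Snx7 and Snx30, and the WT libraries lie to the left in every panel because Snx4 was chosen for that.

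None of the genes beside Snx4 on chromosome 16 passed between the genotypes. Among the 5 tested protein-coding genes on either side, 0 of 10 passed and 1, Itgb5, an integrin subunit, had an unadjusted p under 0.05 (log2 fold change -0.26, SE 0.12, p 0.0441, FDR 0.321), where 15% of all tested genes did. The nearest upstream, Osbpl11, a lipid transfer protein, was at 0.01 (SE 0.066, FDR 0.945), and the nearest downstream, the zinc finger gene Zfp148, was at 0.10 (SE 0.11, FDR 0.664). Without library 43, where Zfp148 was at 157.0 CPM against 109.6 CPM in the next MFN2 library, it was at 0.013, and Osbpl11 was at 0.029. Lrch3, Iqcg, Rpl35a, Lmln, Heg1 and Umps lay between -0.11 and -0.01, with FDR values of 0.650 or more. Of these, Lrch3, Lmln and Heg1 were at -0.016, -0.031 and -0.059 without library 43.

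Kalrn, a guanine nucleotide exchange factor of dendritic spines, was the 1 of 10 neighbours whose genotypes did not overlap, as was the case for 2.04% of all tested genes. It was at 62.8 to 66.7 CPM in WT and at 73.7 to 683.1 CPM in MFN2, with the highest value in library 43. Its log2 fold change was 1.30 (SE 0.65, FDR 0.355), and 0.41 without library 43.

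**Figure D5:**
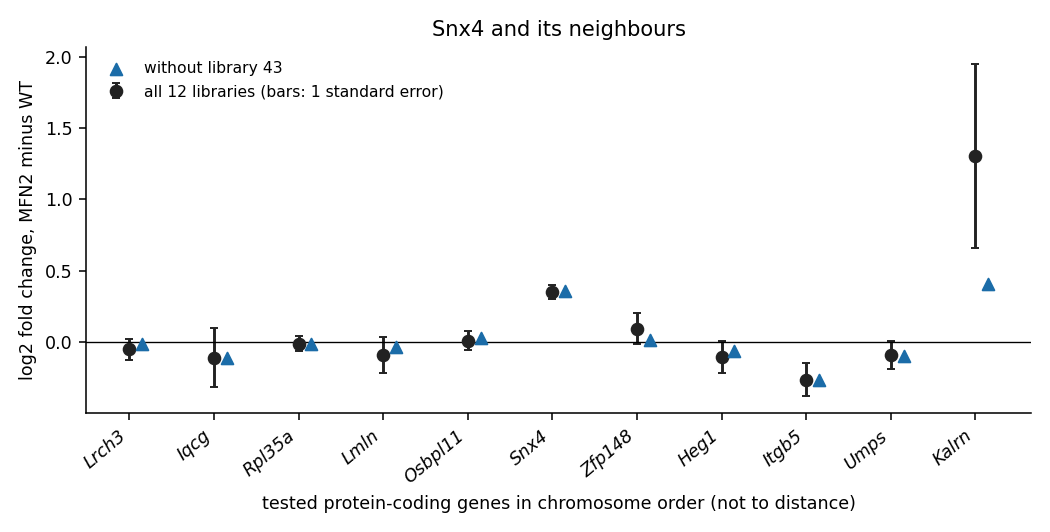
Log2 fold change between MFN2 and WT (y axis) of Snx4 and the 5 tested protein-coding genes on each side of it, in chromosome order (x axis, not to distance). Circles with bars of 1 standard error use all 12 libraries and triangles leave out library 43, which lowers Kalrn from 1.30 to 0.41 and leaves Snx4 at 0.36.

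The genes whose pattern was most like that of Snx4 over the 12 libraries were Gpatch1, a protein with a G-patch domain, Cwc22, a splicing factor, Terf2, a telomere-binding protein, Fbxo11, an F-box protein, and Ube3a, a ubiquitin ligase. Pearson's r of log2 CPM with Snx4 was 0.94 for Gpatch1, 0.93 for Cwc22, 0.91 for Terf2, 0.91 for Fbxo11 and 0.90 for Ube3a, given as a description since the 2 genotypes form separate clusters. All 5 were higher in every MFN2 than in every WT library, which their likeness to Snx4 favours, since Snx4 was chosen for that pattern, so nothing is read from it. Over all tested genes, 0.979% showed it. Within the 8 MFN2 libraries alone the r values were 0.90, 0.64, 0.28, 0.47 and 0.68 in the same order. Among the nexins, Snx2 came nearest, at 0.48 and rank 2135 of 15941 genes, ahead of Snx6 (0.34, rank 3644), Snx30 (0.24, rank 4728) and Snx7 (0.21, rank 5236). Snx12 lay at the far end, at -0.65 and rank 15176.

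Other genes of the endosomal sorting routes were read from 6 lists with 102 genes, of which 100 were tested and Snx31 and Ccdc22 fell below the filter. Between MFN2 and WT 0 passed in edgeR or in DESeq2, and 13 (13%, against 15% of all genes) had an unadjusted p under 0.05, 2 higher and 11 lower. The median log2 fold change of the 100 was -0.02. Between libraries 72 to 76 and WT, 8 rose and 17 fell, together 25% against 23.8% of all genes, which is near the share of the table.

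Of 19 other sorting nexins tested, Snx24 was the 1 (5.26%, against 15% of all genes) with an unadjusted p under 0.05. It was at -0.30 (SE 0.11, FDR 0.278), also the lowest of the list. Snx10, a small nexin known from osteoclasts, was the highest at 0.17 (SE 0.17, FDR 0.626), with 91.0 CPM in library 43 and 0.02 without that library. The median of the list was -0.04.

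Retromer and Commander, the complexes that rescue cargo together with nexins, had 3 of 18 tested genes (16.7%, against 15% of all genes) at an unadjusted p under 0.05, all lower. They were Commd1 (-0.51, SE 0.14, FDR 0.254), Commd5 (-0.27, FDR 0.278) and Tbc1d5 (-0.23, FDR 0.288), of which the latter pair were named after their values were seen. Commd1, a Commander subunit, was at 3.11 ± 0.318 CPM (SD, n = 8) in MFN2 and 4.44 ± 0.840 CPM (n = 4) in WT. Ccdc93 was the highest at 0.15 (FDR 0.431). The retromer core genes Vps35 (0.10, FDR 0.437), Vps26a (-0.0006, FDR 0.997) and Vps29 (-0.01, FDR 0.962), also chosen after their values were seen, did not pass. In the WASH complex, which builds actin on endosomes, 0 of 8 genes had an unadjusted p under 0.05, against 15% of all genes. Values ran from Capza1 at -0.14 (-0.055 without library 43) to Washc5 at 0.10.

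Recycling endosome genes, on the route that Snx4 serves, had 2 of 19 (10.5%, against 15% of all genes) at an unadjusted p under 0.05. These 2 lay in opposite directions. Rab11fip2, an effector of the recycling GTPase Rab11, was at 0.30 (SE 0.14, FDR 0.322) and highest in library 43, without which it was at 0.20. Its relative Rab11fip1 was at -0.52 (SE 0.15, FDR 0.254), with 4.59 ± 0.851 CPM (SD, n = 8) in MFN2 and 6.61 ± 0.826 CPM (n = 4) in WT.

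Early endosome genes had 3 of 19 (15.8%) at an unadjusted p under 0.05, near the 15% of all genes. They were the Rab5 effectors Appl1 (0.16, SE 0.058, FDR 0.278) and Appl2 (-0.24, FDR 0.280) and the GTPase Rab5b (-0.25, SE 0.094, FDR 0.285), with Appl2 named after its values were seen. Cargo of the nexins and of retromer had 4 of 17 (23.5%, against 15% of all genes) at this threshold. While 7.57% of all genes were lower at it, all 4 of these were lower. They were the glucose carrier Slc2a1 (-0.26, SE 0.11, FDR 0.306) and, named after their values were seen, M6pr (-0.24, FDR 0.289), Lrp1 (-0.20, FDR 0.331) and Sorl1 (-0.19, FDR 0.278). The transferrin receptor Tfrc was at 0.05 (FDR 0.833) and Atg9a at -0.05 (FDR 0.763). Both are known cargo of Snx4, and were picked here after their values were seen.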

How the data were processed

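RNA of the lumbar spinal cord was sequenced from 8 MFN2 and 4 WT mice. The authors deposited whole-number counts per Ensembl gene for each library, without normalization. The submitters' processing notes name bcl2fastq, STAR, edgeR and GRCm38.p6, and the methods name a stranded kit, while how reads were counted, and with which strand setting, is not given in the sources used here, so that counts of overlapping and antisense genes are uncertain. Genotypes came from the sample labels. Every pair of the 12 libraries differed by more than sampling noise, with a chi-square of 5.34 to 186.9 per gene, where sampling alone gives about 1.

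Of the 49548 genes in each file, 49289 matched GENCODE M21, and the 15942 genes above 1 CPM in at least 3 libraries were given TMM factors and entered edgeR 4.0.16 (quasi-likelihood test, legacy form, robust) in R 4.3.3, with Benjamini-Hochberg adjustment over all genes tested and an FDR threshold of 0.05. The common biological coefficient of variation was 23.6%. Smaller sets of libraries were filtered again, so the number of genes tested differs. Each standard error is the log2 fold change over the root of F. A prior count of 2 entered log2 CPM, and RPKM used the union of GENCODE exons. The scripts were tested on simulated data. Total counts per library ranged from 19359454 to 26738930, and genes near 1 CPM rest on few counts. P-values measure the spread between mice, 1 library each.

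The 10 nexins, the lists and the tests were chosen with earlier results of these data known. Named genes were the nexins, the 5 tested protein-coding genes on each side of Snx4, the highest and lowest gene of each endosomal list with any gene past the threshold, the 5 genes most like Snx4, markers where a library stood apart, and Mfn2. Some genes that the rule names are not reported here. Promoter sequences came from RefSeq on GRCm38.p6. Alternatives were other filters and scalings, DESeq2 1.42.0, limma 3.58.1, subsets and covariates by run of library numbers or forebrain score, and each library left out in turn.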

Additional observations from a re-analysis of the deposited data

Results flagged for a closer look

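In 22 groups of 4 to 8 libraries, the gap from the farthest library to its nearest neighbour was compared with the range of the group by Dixon's criterion. It was passed 4 times, where chance gives about 1 in 20, or 1.1 here, and each time the library was MFN2 library 43. Snx7 was highest in it, at 21.4 CPM, with a gap of 0.75 of the range. Snx30 was lowest, at 79.9 CPM, with 0.571 of the range, and Snx6 was lowest, at 35.8 CPM, with 0.707 of the range. The forebrain score was highest, at 8.05, with 0.882 of the range. The part of the forebrain markers in the nexin values of that library was not tested beyond the fits without it and with the score as a covariate.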

How the results depend on the processing

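No paired analysis was possible because no number of a library occurs in both genotypes. The count of genes between MFN2 and WT, 0 with all libraries, was 200 with DESeq2, 17 with the forebrain score as a covariate, 1 with libraries 41 to 43 and 3746 with libraries 72 to 76. Leaving out each library gave 0 to 19 genes (19 without library 43, 7 without 41, 1 without 76) and 0 nexins or pathway genes. With libraries 72 to 76 against WT, 4 nexins and 25 pathway genes passed. In alternatives chosen after seeing the data, libraries 72, 74, 75 and 76 gave 3163 genes, 4 nexins and 22 pathway genes, and all except 43 and 73 gave 4 genes. Between the MFN2 runs, 342 genes became 1794 with DESeq2, 1954 with the forebrain covariate and 31 to 2375 with a library left out, the highest without 43. The r of Snx7 with Snx4 ranged from -0.86 (without 73, adjusted exact p 0.0464) to -0.11 (without 43), and that of Snx30 from -0.33 (without 43) to 0.72. Between genotypes, Snx3 turned to 0.0044 without TMM, Snx2 to -0.061 and Snx6 to -0.010 in libraries 41 to 43, and to -0.075 and -0.024 with the run as a covariate. Without TMM the median of all genes was 0.054. Between the runs, Snx27 turned to 0.054 without TMM, and Snx7, Snx30, Snx1 and Snx3 to 0.063, -0.12, -0.12 and -0.085 with the forebrain covariate. Leaving out each library there moved Snx7 from -0.57 to 0.022, Snx30 from -0.10 to 0.23, Snx1 from -0.11 to 0.25, Snx3 from -0.076 to 0.086, Snx5 from -0.18 to 0.037 and Snx27 from -0.12 to 0.060. Signs turned without 43 for Snx7, Snx30, Snx1 and Snx3, without 72 for Snx3 (-0.0035), without 41 for Snx5 and Snx27, and without 42 (0.043) and 73 (0.020) for Snx27. The cause was not tested. Levels moved by over 1 SD with the longest transcript as length for 8 of the 10 nexins.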

Other observations

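Oligodendrocyte markers summed to 8133 CPM in library 43, against 21104 to 33950 CPM in the other MFN2 libraries and 23478 to 30101 CPM in WT. Neuron markers summed to 5490 CPM in library 43, 4115 to 4868 CPM in the other MFN2 libraries and 4351 to 4890 CPM in WT. Endothelial markers summed to 148.7 CPM in library 43, 104.1 to 171.9 CPM in the other MFN2 libraries and 124.8 to 150.5 CPM in WT.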
